A study of Mus musculus with 2 samples.

Results

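The locus described here is a block of 6 neighbouring genes on mouse chromosome 5 around the Abcb1 drug transporters, in the order Dbf4, Slc25a40, Rundc3b, Abcb1a, Abcb1b and Abcb4. The members were taken by name from a list drawn up with the differences between the arrays already known, so their differences are a description and carry no test. All 6 were among the 16579 genes measured, and no other measured gene lay between them in the order of the gene table. The series compared 1 array of wild type (Lsh+/+) mouse embryonic fibroblasts (MEF) with 1 array of Lsh-/- fibroblasts, both total RNA from cells grown in DMEM with fetal bovine serum and antibiotics. Lsh, encoded by Hells, is a SNF2 family chromatin remodeller needed for normal DNA methylation, and the series set out to relate methylation at non-repetitive sequence to expression. The deletion is the only allele the labels give, they describe no treatment, and they do not say how many embryos stood behind either culture. Neither genotype was repeated, so a difference between the genotypes cannot be told apart from one between these cultures or arrays, and no value below has an error or a p-value.

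Abcb1a and Abcb1b are the mouse genes for P-glycoprotein, an ATP-driven pump of the plasma membrane that exports many hydrophobic drugs; humans have a single ABCB1. P-glycoprotein is known for its part in the blood-brain barrier and in the multidrug resistance of tumour cells. Abcb4 encodes a close relative that moves phosphatidylcholine into bile in the liver. Rundc3b encodes a RUN domain protein, and in human lymphoid malignancies the promoter of its counterpart has been described as methylated. Slc25a40 encodes a mitochondrial inner membrane carrier, which with its relative Slc25a39 is linked to glutathione import, and Dbf4 encodes the activating subunit of the Cdc7 kinase that fires replication origins.

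Promoter windows of 4 of the members are shown, those of the 3 genes with the widest differences and of Dbf4, the gene with the smallest; CpG is the dinucleotide that DNA methylation acts on. Each runs 5′ to 3′ from 250 bases before to 50 bases after the start given for the gene by RefSeq (GRCm38.p6), with every CpG in capitals.
Rundc3b: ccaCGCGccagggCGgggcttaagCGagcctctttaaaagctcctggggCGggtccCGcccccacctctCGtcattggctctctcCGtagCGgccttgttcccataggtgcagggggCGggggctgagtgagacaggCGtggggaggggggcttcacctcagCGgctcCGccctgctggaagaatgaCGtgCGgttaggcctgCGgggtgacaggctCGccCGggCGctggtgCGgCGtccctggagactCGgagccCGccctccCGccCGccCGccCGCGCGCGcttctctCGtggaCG
Abcb1b: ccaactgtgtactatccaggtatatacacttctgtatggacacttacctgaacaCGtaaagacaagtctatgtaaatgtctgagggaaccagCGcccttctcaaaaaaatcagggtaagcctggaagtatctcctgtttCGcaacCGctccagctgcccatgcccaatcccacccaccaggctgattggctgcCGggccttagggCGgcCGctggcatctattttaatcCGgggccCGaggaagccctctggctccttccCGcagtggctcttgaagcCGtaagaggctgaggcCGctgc
Abcb1a: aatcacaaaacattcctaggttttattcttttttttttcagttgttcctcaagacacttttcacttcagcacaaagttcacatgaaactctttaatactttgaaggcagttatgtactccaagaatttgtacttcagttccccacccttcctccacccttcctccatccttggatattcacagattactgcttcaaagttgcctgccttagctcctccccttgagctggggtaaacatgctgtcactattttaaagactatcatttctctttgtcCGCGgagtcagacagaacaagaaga
Dbf4: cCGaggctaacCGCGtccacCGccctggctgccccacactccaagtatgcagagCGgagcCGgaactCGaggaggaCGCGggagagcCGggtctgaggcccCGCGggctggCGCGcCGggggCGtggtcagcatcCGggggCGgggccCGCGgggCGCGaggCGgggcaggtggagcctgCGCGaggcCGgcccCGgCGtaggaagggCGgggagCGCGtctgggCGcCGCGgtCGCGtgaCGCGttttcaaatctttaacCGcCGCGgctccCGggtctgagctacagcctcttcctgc

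The promoter windows differed widely in CpG content. Rundc3b had 32 CpG in 300 bases, with an observed over expected ratio of 0.83, and Dbf4 and Slc25a40 had 42 and 47, with ratios of 1.02 and 1.02. Abcb4 had 21 (0.70) and Abcb1b 12 (0.53), while Abcb1a had 2 (0.18), both in 1 run of letters shortly after the start. Over all 32851 windows of the table the median was 7 CpG and the quartiles were 3 and 20. The window of Abcb1a was thus the only member window below that median. It lies at the start given for the whole gene, which the measured transcript may not use. Rundc3b, Dbf4 and Slc25a40 had more CpG than 90.5%, 97.0% and 98.6% of windows. The CpG count did not follow the order of the expression differences given next, since the windows richest in CpG belonged to the genes that differed least.

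**Figure D1:**
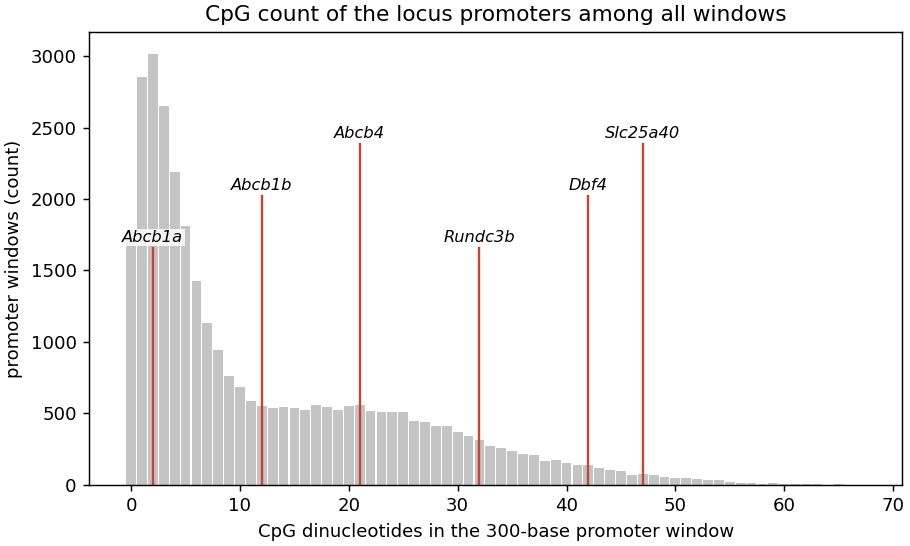
Number of promoter windows (vertical axis) by CpG dinucleotides per 300-base window (horizontal axis) for all 32851 windows, with red lines at the 6 locus genes. Abcb1a, at 2 CpG, lies among the windows of low count, counted at a start that the measured transcript may not use. Dbf4 and Slc25a40, at 42 and 47, lie in the upper tail.

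The windows of Dbf4 and Slc25a40 lie on opposite strands and share 221 bases, so both genes start from a single head-to-head promoter region. In the gene table the extents of Rundc3b and Abcb1a overlap and the start given for Abcb1a lies inside Rundc3b, on the opposite strand. That extent covers all of the gene's transcripts, and whether the measured Abcb1a transcript uses this start was not examined. The CCAAT box was searched as CCAAT and the GC box as GGGCGG, each on both strands; every GC box holds a CpG. Abcb1b had 2 CCAAT and 1 GC box, Abcb4 had 1 of each, Rundc3b had 1 CCAAT and 9 GC boxes, Dbf4 and Slc25a40 had no CCAAT and 3 and 2 GC boxes, and Abcb1a had neither. CCAAT occurred in 37.4% and GGGCGG in 35.7% of all windows.

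Hells, the deleted gene, read 6.68 on the Lsh+/+ array and 5.22 on the Lsh-/- array on the deposited log2 scale, a 2.75-fold lower value. Whether its probes lie in the deleted part was not examined. A gene was kept where at least 1 of its values reached the median of all rows of that array, 3.86 for Lsh+/+ and 3.88 for Lsh-/-; this limit is not a detection limit, and 9169 genes passed it. Past 2-fold, 426 of them (4.65%) were higher and 556 (6.06%) were lower in Lsh-/- cells, and the quartiles of the differences were -0.34 and 0.35. The 9 hybridisation control probe sets, RNA added at a fixed amount, read a median of 0.44 higher on the knockout array. Scaling to them moved the median of all kept genes from 0.01 to -0.43 and the counts to 168 higher and 1349 lower, so every direction here is relative to the other genes on the arrays. The gap between the 3′ and 5′ probe sets, a sign of RNA integrity, was 2.56 and 3.15 for Actb and 2.14 and 2.84 for Gapdh in wild type and knockout, and the part of this in the values below was not tested.

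All 6 members read higher on the Lsh-/- array than on the Lsh+/+ array, although Dbf4 turned to -0.32 when scaled to the hybridisation controls. Rundc3b had the widest measured gap, followed by Abcb1b and Abcb1a, while Abcb4, Slc25a40 and Dbf4 lay within 2-fold. The gap of Rundc3b rests on a wild type value below the limit. After 32 was added to the linear values, Rundc3b stood at 1.71 and Abcb1b at 1.72. On the Abcb side of Rundc3b the differences did not fall evenly, since Abcb1a, next to it, had a smaller one than Abcb1b. Of the 4 members that passed the limit, 2 were at least 2-fold higher and none lower, against the 4.65% and 6.06% of all kept genes. Without the limit, 3 of 6 were at least 2-fold higher and none lower, against 2.91% and 3.63% of all measured genes, and 6 of 6 were above 0, against 50.7%. Since the members were chosen on these differences, nothing is read from these shares.

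**Figure D2:**
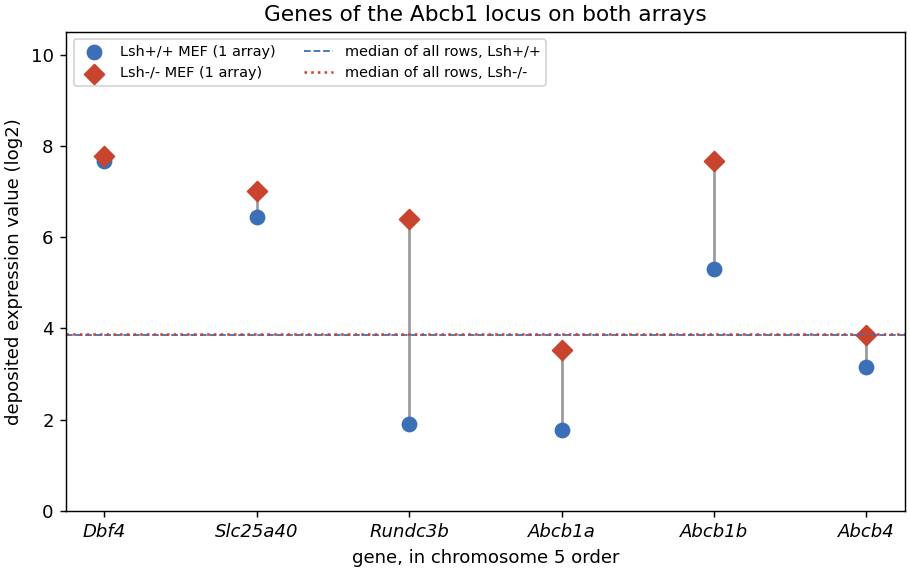
Deposited log2 values (vertical axis) of the 6 genes in chromosomal order on the Lsh+/+ array (blue circles) and the Lsh-/- array (red diamonds), 1 array each, with lines at the median of all rows per array. Every red diamond lies above its blue circle, by 4.49 for Rundc3b and by 0.12 for Dbf4 (-0.32 when scaled to the hybridisation controls), and Abcb1a and Abcb4 lie below the lines on both arrays.

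Abcb1b, the P-glycoprotein gene with the brighter row, read 5.31 on the Lsh+/+ array and 7.67 on the Lsh-/- array. Both values lay above the limit, so that the difference of 2.36, or 5.13-fold, was measured on both sides. It ranked 50th from the highest among the 9169 kept genes and 5th among the 613 kept genes of chromosome 5. It was the only member past 2-fold that was above the limit on both arrays.

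Abcb1a, the other P-glycoprotein gene, read 1.77 on the Lsh+/+ array and 3.53 on the Lsh-/- array. The difference of 1.76 exceeded 2-fold, but both values lay below the limit, the knockout value by 0.35, and no fold is given. After 32 was added to the linear values, a pseudocount that shrinks differences of dim rows, it was 0.30. The rows of Abcb1a and Abcb1b held different values, and no row of another gene held the value pair of either. The 2 genes are close paralogs, and whether probes of the bright Abcb1b row pick up Abcb1a transcripts, or the reverse, was not tested.

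Abcb4, the phospholipid transporter, read 3.16 in Lsh+/+ and 3.86 in Lsh-/- cells, a difference of 0.70. The knockout value missed the limit by 0.02, and so the row was dim on both arrays. Its difference was shared to 6 decimals by 10 other genes, only 1 of which was kept.

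Rundc3b read 1.91 in Lsh+/+ and 6.40 in Lsh-/- cells, a difference of 4.49. The wild type value lay 1.95 below the limit and the knockout value 2.52 above it, so the gene was at least 5.84-fold higher over the limit and was kept through the knockout array alone. Set against the 5.13-fold of Abcb1b, this bound does not fix by how much the 2 genes differ, and with the pseudocount they stood at 1.71 for Rundc3b and 1.72 for Abcb1b.

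Slc25a40, the mitochondrial carrier, read 6.45 in Lsh+/+ and 7.02 in Lsh-/- cells. The difference of 0.57, or 1.49-fold, was larger than that of 85.8% of kept genes and stayed under 2-fold. Dbf4, which shares the promoter region of Slc25a40, read 7.68 and 7.79, a difference of 0.12 or 1.08-fold that lay between the quartiles of all kept genes. Its 2 transcript rows held identical values and count as 1 measurement. Scaled to the hybridisation controls, Dbf4 differed by -0.32 and Slc25a40 by 0.13, while Rundc3b and Abcb1b stayed past 2-fold at 4.05 and 1.92.

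**Figure D3:**
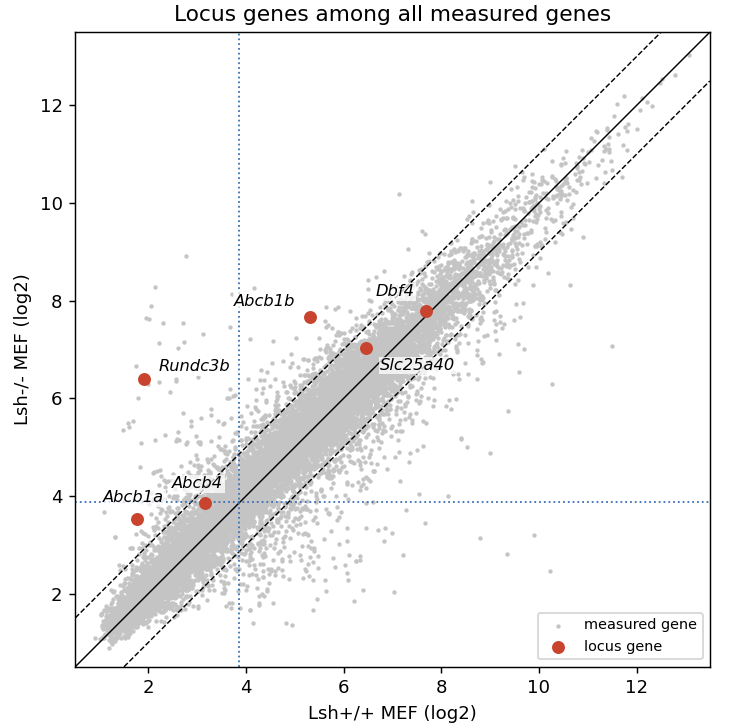
Lsh-/- (vertical) against Lsh+/+ (horizontal) log2 values of all 16579 measured genes (grey), with the locus genes in red, the diagonal, dashed lines at 2-fold and dotted lines at the medians of all rows. Rundc3b, Abcb1b and Abcb1a lie above the upper dashed line, Rundc3b in the region that is dim only in the wild type, and Dbf4 lies near the diagonal.

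The higher values did not end with the named block on its far side. Crot, the peroxisomal carnitine octanoyltransferase next to Abcb4, read 6.28 and 7.10 in wild type and knockout, a difference of 0.82. Tmem243, the next measured gene, read 3.85 and 4.64, a difference of 0.80, with the wild type value at the limit. Beyond it Dmtf1, a cyclin D-binding transcription factor, differed by -0.25. Differences of the size of Crot and Tmem243 also occurred farther out, at Sema3d (0.93, wild type below the limit) and Sema3e (0.82, both values below it). Sema3a, between these 2, differed by -1.55. Sema3d and Sema3e were named after their values were seen. On the Dbf4 side Adam22, a disintegrin family receptor, differed by 0.05, the calcium-binding protein sorcin, encoded by Sri, by 0.12, and Steap4, a metalloreductase, by -0.26. From Sri to Tmem243, 10 measured genes in a row thus read above 0. On all autosomes and X, 33 such runs were this long or longer, this one included, and the longest held 20 genes. With scaling to the hybridisation controls Crot and Tmem243 differed by 0.38 and 0.36, while Adam22 and Sri turned to -0.39 and -0.31, and the row of genes above 0 shortened to 7, from Slc25a40 to Tmem243.

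No neighbour among the 10 measured genes on either side was at least 2-fold higher. Of these 20 genes 12 were kept, and 3 of the 12 were at least 2-fold lower, against 6.06% of all kept genes. Above 0 were 10 of 20, against 50.7% of all measured genes. The median difference of the 20 was -0.02, beside 1.23 for the 6 members. The members were chosen on their differences, so nothing is read from this contrast. The 1.23 also lay between Abcb4 (0.70) and Abcb1a (1.76), both below the limit on both arrays. The 3 lower genes were Steap1 and Steap2, relatives of Steap4, and Sema3a, a secreted axon guidance cue. Steap1 went from 8.24 to 6.49, Steap2 from 6.79 to 5.30 and Sema3a from 6.99 to 5.44. Cfap69 differed by -1.02 with both values below the limit. The kept genes of chromosome 5 as a whole had a median of -0.04, and 4.89% of them passed 2-fold on the higher side.

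**Figure D4:**
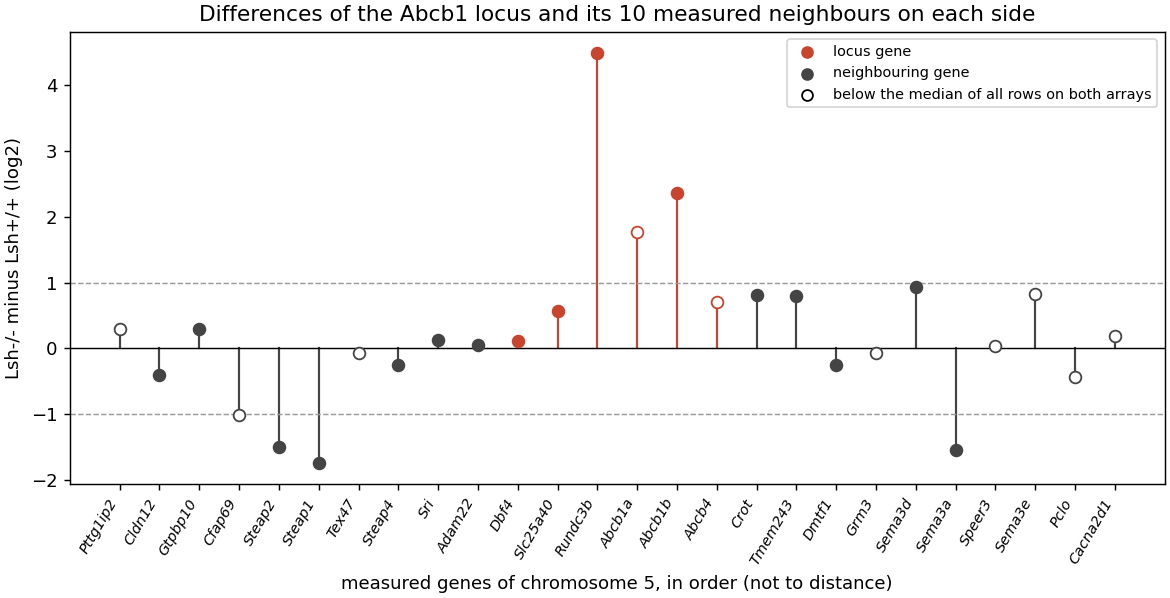
Difference between the arrays (Lsh-/- minus Lsh+/+, log2) for the 6 locus genes (red) and the 10 measured genes on each side (grey), evenly spaced in chromosomal order, with open circles for genes below the median of all rows on both arrays and dashed lines at 2-fold. The differences reach 4.49 at Rundc3b, whose wild type value lay below the median of all rows. They are 0.80 at Tmem243 on the right and 0.12 at Dbf4 on the left. The fall to the right is uneven at Abcb1a and Abcb4, both drawn as open circles. Steap1, Steap2 and Sema3a lie below the lower line.

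The median difference of the locus, 1.23, lay between the 0.70 of Abcb4 and the 1.76 of Abcb1a. Both of these rows were below the limit on both arrays, so the place of the locus by this median rests on dim rows. Windows of 6 adjacent measured genes that share no gene with the block numbered 16462. Of these, 4 had a median difference at least as high as 1.23, and 2 had one at least as far below 0. The 4 were a window of chromosome 10 and overlapping windows of the same stretch of chromosome 15. Among the 16462 windows 38 (0.231%) held at least 3 genes past 2-fold higher, the number in the locus without the limit. At least 2 kept genes past 2-fold higher, the number in the locus with the limit, occurred in 261 windows (1.59%), and all 6 differences lay above 0 in 550 (3.34%). These windows overlap each other, and the locus was chosen for its differences, so the counts place it among the others and test nothing.

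Among the genes named Abc, the bulk of the ABC transporter family (Tap1 and Tap2 are left to the list below), the locus genes can be set beside their relatives; the members were chosen on these differences, so their own place is a description. Of 50 such genes 44 were measured and 19 kept; of these, 2 passed 2-fold on the higher side and 1 on the lower, and their median was 0.15, which became -0.29 with scaling to the hybridisation controls. Abcb1b and Abcb1a had the highest differences of the 44, that of Abcb1a from values below the limit on both arrays and 0.30 with the pseudocount. Abcg2, a further drug exporter, came next at 6.51 and 7.54, a difference of 1.03 or 2.04-fold. Abcc1, the drug and glutathione conjugate exporter MRP1, had the lowest difference of the 44, at 7.25 and 5.84, or 2.66-fold lower. Among 16 drug and lipid exporters fixed as a list, 8 were kept, and Abcg2 and Abcc1 were the only ones past 2-fold, with a list median of 0.06 (-0.38 with that scaling, where no exporter was 2-fold higher). Of the 8 measured genes of the Abcb subfamily outside the block, Tap1 and Tap2 included, 3 were kept, and Tap2, a subunit of the antigen peptide transporter with a lower difference than Abcc1, read 5.07 and 3.23, lower by at least 2.27-fold when set against the limit. The median of those 3 was 0.28, or -0.16 with that scaling.

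**Figure D5:**
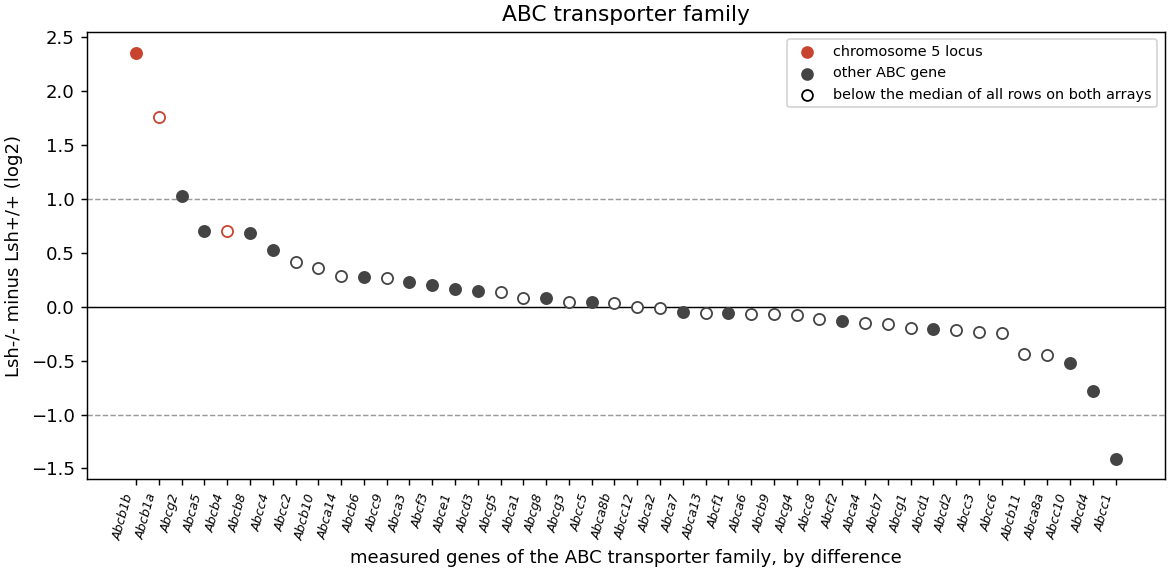
Difference between the arrays (Lsh-/- minus Lsh+/+, log2) for the 44 measured genes named Abc (Tap1 and Tap2 not plotted) in falling order, locus genes in red, with open circles for genes below the median of all rows on both arrays and dashed lines at 2-fold. Abcb1b at 2.36 and Abcb1a at 1.76 lead, Abcg2 at 1.03 is the only other gene above the upper line, and Abcc1 at -1.41 is the only plotted gene below the lower line.

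Relatives and partners of the other members were taken from fixed lists. Of 13 kept RUN domain genes, relatives of Rundc3b, none was 2-fold higher and 1 was lower, Rusc2, a Golgi and vesicle adaptor, at 6.09 and 4.83; the list median was 0.04 (-0.40 scaled to the hybridisation controls). The closest relative by name, Rundc3a, was chosen after its value was seen and differed by -0.33. Of 23 kept origin firing genes, partners of Dbf4, 3 were at least 2-fold higher and none lower, with a median of 0.45 that became 0.01 with that scaling, where none was 2-fold higher. Cdc6, which loads the replicative helicase, went from 4.34 to 5.57, the helicase subunit Mcm6 from 7.40 to 8.60 and the checkpoint and firing factor Topbp1 from 6.11 to 7.13. Cdc7, the kinase that Dbf4 activates, also chosen after its value was seen, differed by 0.07. The 30 kept mitochondrial carriers included none at least 2-fold higher and 3 lower, with a median of -0.13 (-0.57 scaled to the hybridisation controls). The lower count was 6 with that scaling, 1 after quantile normalization and 0 with the pseudocount. The 3 were Slc25a1, the citrate carrier (7.06 and 6.04), Slc25a51, a carrier of NAD (7.16 and 6.15), and Slc25a36, a pyrimidine nucleotide carrier, at least 1.02-fold lower over the limit.

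Glutathione genes, listed because of Slc25a40, held the lowest differences among the lists of function. Of 16 kept members none was 2-fold higher and 3 were at least 2-fold lower, all of them glutathione transferases, which conjugate foreign compounds for export; the list median was -0.14. Gstt1 went from 7.34 to 4.69 (6.29-fold), Gsto1 from 7.62 to 5.53 (4.26-fold) and Gstm1 from 8.80 to 6.80 (4.02-fold). The transferases Gsta4 (8.21 and 8.08) and Mgst1 (10.35 and 10.35), named after their values were seen, were nearly level. Of 10 kept regulators of Abcb1 transcription, Egr1, an immediate early transcription factor, was alone past 2-fold, at 8.65 and 9.81, and the list median was -0.01. With scaling to the hybridisation controls none of the 10 was 2-fold higher and 2 were lower. The nuclear receptors Nr1i2 and Nr1i3, drug sensors of the liver that induce P-glycoprotein (named after their values were seen), lay below the limit on both arrays at 2.37 to 2.93. Of 9 genes of bile transport, the setting in which Abcb4 acts, only Abcg8 was kept, at 4.16 and 4.24. These counts stand beside 4.65% (higher) and 6.06% (lower) over the whole set of kept genes, whose median was 0.01.

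Markers of the cell types in which these genes are known to be abundant were mostly dim. All 7 hepatocyte markers and all 6 neuronal markers lay below the limit on both arrays, with summed linear values of 32.1 and 36.0 and of 25.0 and 29.8 in wild type and knockout. Of 7 endothelial markers 2 were kept, in opposite directions: the receptor Kdr read 5.64 and 7.45 and the secreted factor Egfl7 7.07 and 5.34. The defining genes Pecam1, Cdh5, Cldn5, Tek and Tie1 read between 1.59 and 2.85, and the sum of the list was 206 and 237. Of 6 epithelial markers 3 were kept and 2 of these were at least 2-fold higher, against 4.65% of all kept genes. They were the keratins Krt18 (2.77 and 8.92) and Krt19 (7.14 and 10.2), which took the sum from 227 to 1746. The third, the keratin Krt8, was nearly level at 5.98 and 6.23, while Epcam and Cdh1 stayed below the limit. Of 6 blood cell markers Cd34 read 2.26 and 4.41, Itgb2 4.27 and 3.83, Ptprc stayed at 1.89, and the sum was 49.4 and 57.9. Fibroblast markers were present, with 11 of 12 kept, though Thy1 was dim at 1.93 and 1.87. Of these 11, 5 were at least 2-fold lower, against 6.06% of all kept genes. Among the 5 were Col1a2 at 11.5 and 7.06, S100a4 at 10.3 and 6.29 and Lum at 6.32 and 2.69. The other 6 kept fibroblast markers stayed within 2-fold. Col3a1, the only kept one above 0, differed by 0.78, and the list median was -0.73. The part of the keratin and fibroblast differences in the values of the locus was not tested. In these bulk samples, a gene expressed in more cells and a gene expressed more per cell cannot be told apart.

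The kept genes nearest to the leading members were found by the distance between their pairs of log2 values, over 2 arrays. The distance rests on the levels of different rows, which depend on their probes, and for Rundc3b and Abcb1a on wild type values below the limit, so it describes the rows and shows no likeness of the genes. Nearest to Rundc3b were Ndn, an imprinted gene of chromosome 7, at 2.00 and 6.29 (distance 0.15), the X-linked Dcaf8l (0.32) and 1700018B24Rik of chromosome 3 (0.32). Nearest to Abcb1b were Tesc, at 5.61 and 7.59 (0.31), Chchd10 (0.38) and Kdr (0.39), of which Tesc and Kdr are also on chromosome 5. Nearest to Abcb1a among kept genes were Adgrf4 (0.51), Slfn4 (0.58) and Gpat2 (0.59), all kept through the knockout value.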

How the data were processed

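Total RNA of 1 Lsh+/+ and 1 Lsh-/- MEF culture was hybridised to Affymetrix Mouse Genome 430 2.0 arrays, per the labels' protocols. The authors deposited log2 expression values made with RMA, per the submitters' processing notes; the log scale was read from the values, which ran from 0.89 to 13.1. The RMA settings and genome build are not given in the sources used here. The table held 23950 rows, 64 of them controls, named by RefSeq transcript.

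Row names were matched without version to GRCm38.p6 transcripts; 21230 rows matched 1 gene and 2656 none. A gene with several rows was represented by the one whose 2-array mean was highest. Coordinates are not given, since the build behind the rows is not stated. Differences are Lsh-/- minus Lsh+/+, and the threshold was 2-fold. An "at least" fold sets the brighter value against the limit of the dimmer array.

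The members, lists, naming rule and alternatives were chosen with earlier results of these data known. Named were the members, up to 3 genes per list and direction past 2-fold (otherwise the farthest from 0), neighbours within 3 genes or past 2-fold, Hells, and the 3 genes nearest each member past 2-fold. Outside this rule, Pecam1, Cdh5, Cldn5, Tek, Tie1, Epcam, Cdh1, Itgb2, Ptprc and Thy1 were named as defining markers. Abca5, Krt8, Col3a1 and the genes so described in the text were named after their values were seen. RefSeq promoter windows were matched by symbol for 6 of 6 members. Protein sequences were not used here, so paralog identity was not computed. Counts and windows were tested on simulated data and recovered every planted value. Python 3.11.15, numpy 2.4.6, pandas 2.3.3 and statsmodels 0.14.6 were used. The number of arrays limits the precision.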

Additional observations from a re-analysis of the deposited data

How the results depend on the processing

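No paired analysis was possible because there was a single array of either genotype, which also leaves no replicate to omit. The protein alignment was not run. Under the alternatives tried, 2 kept members stayed at least 2-fold higher, or 3 without the limit, and none was 2-fold lower. The median of the kept members ran from 1.03 (hybridisation scaling) to 1.51 (chromosome 5 median subtracted). Dbf4 changed direction, to -0.32, with hybridisation scaling, which lowers every knockout value alike, and Abcb1a fell under 2-fold, to 0.30, with the pseudocount of 32; the other members kept their direction and their side of 2-fold under every alternative. Rundc3b ran from 1.71 (pseudocount) to 4.53 and Abcb1b from 1.72 to 2.40.

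Over all kept genes, the 426 higher and 556 lower genes changed to 168 and 1349 by hybridisation scaling, 101 and 193 by the pseudocount, 225 and 314 by an upper quartile limit, 131 and 240 by a 3-fold threshold, and 1254 and 1267 by a 1.5-fold threshold. Of the list medians and counts, 13 moved with hybridisation scaling, 9 with the pseudocount, 4 with the upper quartile limit, 4 without a limit, 9 at 1.5-fold, 9 at 3-fold, 1 with quantile normalization, 1 with loess (span 0.3), and none with the mean over rows or the chromosome 5 median, of 43 per alternative at most (30 for the thresholds). Further, the epithelial marker median went under 2-fold without a limit (0.63), and the fibroblast marker median past it with hybridisation scaling (-1.16). Signal over background is unknown, which limits Abcb1a, Abcb4 and the wild type value of Rundc3b most.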

Other observations

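Differences between the arrays repeated exactly across unrelated genes. Compared to 6 decimals, the 16579 measured genes held 9544 distinct differences, and 729 genes differed by exactly 0. Of the genes below the limit on both arrays 76.5% shared their difference with another gene, against 29.5% of kept genes. Abcb4 shared its 0.70 with 10 genes, among them its relative Abca5, and Abcb1a shared its 1.76 with 1. The differences of Rundc3b, Abcb1b, Slc25a40 and Dbf4 were shared with no other gene.

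Promoter CpG content was also set beside the differences of all kept genes with a promoter window. The median was 19 CpG over 317 genes at least 2-fold higher, 16 over 428 genes at least 2-fold lower and 22 over 6635 genes between. For the 136 higher genes whose wild type value lay below the limit, as that of Rundc3b did, the median was 15, against 32 for Rundc3b.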
